A study of Arabidopsis thaliana with 6 samples.

Results

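The comparison described here set camta3-2 against camta3-1, which are mutant lines of Arabidopsis thaliana carrying different alleles of CAMTA3. It rested on 4 of the 6 arrays of the study, 2 titled camta3-2 and 2 titled camta3-1, chosen by their titles alone. The other 2 arrays, titled wild type, gave the reference level and a share of the estimate of spread, and did not enter the difference itself. All plants were 3 weeks old, and total RNA was hybridised after biotin labelling to Affymetrix arrays, 1 array for each of 2 biological replicates per line. The labels name no tissue, treatment or growth condition and do not describe the lesion in either allele, so each allele is known here only as 1 mutant line. Every probe set except the 64 controls was used, which left 22746 of 22810, and values are log2 expression after RMA, the summary method used by the submitters.

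CAMTA3 is a transcription factor that binds calmodulin, the calcium sensor, and is known to hold down salicylic acid defence genes in leaves. Lines with different mutations in the same gene are used to separate effects of that gene from effects particular to a line, so a transcript that differs between alleles is one that the lines do not share. QQS, named as the landmark of this comparison with its difference already known, is a gene found in A. thaliana without known relatives elsewhere. It encodes a small protein whose reduction is known to raise leaf starch, and its level is known to vary widely between natural accessions.

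The median log2 value of an array was 6.18 to 6.26, lowest in camta3-2 replicate 2. Across probe sets the camta3-2 replicates had a Pearson correlation of 0.9916 and the camta3-1 replicates of 0.9929, while arrays of the same replicate number in different alleles reached 0.994 and 0.9937. Arrays that shared a number were thus at least as alike as replicates of an allele. Replicates of camta3-2 were at least 2-fold apart at 102 probe sets with replicate 1 higher and at 58 with replicate 2 higher, and in camta3-1 these counts were 56 and 77. RCA, the Rubisco activase gene of green tissue, was at least 13.83 in all 6 arrays, whereas the root hair genes EXPA7 and EXPA18 lay between 4.28 and 4.68. No probe set was named for CAMTA3 by the annotation used, so the mutated gene was not analysed here and the labels could not be checked against it.

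QQS (AT3G30720) was the 1 transcript whose difference between the alleles passed the test, and it was far higher in camta3-2. The camta3-2 arrays read 8.72 and 8.95, against 5.81 and 5.86 in the camta3-1 arrays, and the wild-type arrays read 6.37 and 6.16. Both camta3-2 arrays therefore lay far above all other arrays, and both camta3-1 arrays lay below both wild-type arrays. The group means were 8.83 ± 0.16 in camta3-2, 5.83 ± 0.04 in camta3-1 and 6.27 ± 0.15 in wild type (SD, n = 2 each). The difference between alleles was 3.00 on the log2 scale with a standard error of 0.13 and a 95% interval of 2.69 to 3.31, or 8.0-fold (limma, adjusted p = 8.358e-04).

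Within each replicate number the QQS difference was of like size, at 2.91 for the arrays numbered 1 and 3.09 for those numbered 2. Against wild type QQS rose by 2.57 in camta3-2 (limma, adjusted p = 8.723e-04), where 0.734% of all probe sets passed. In camta3-1 it was at -0.43 relative to wild type (standard error 0.13, adjusted p = 0.23), which did not pass, while 1.08% of all probe sets did. An exact permutation test of 2 against 2 arrays gave p = 0.333, which is the smallest it can give, so the call rests on the spread pooled across probe sets. Because QQS was named with its difference already known, these values describe it and are no independent evidence.

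**Figure D1:**
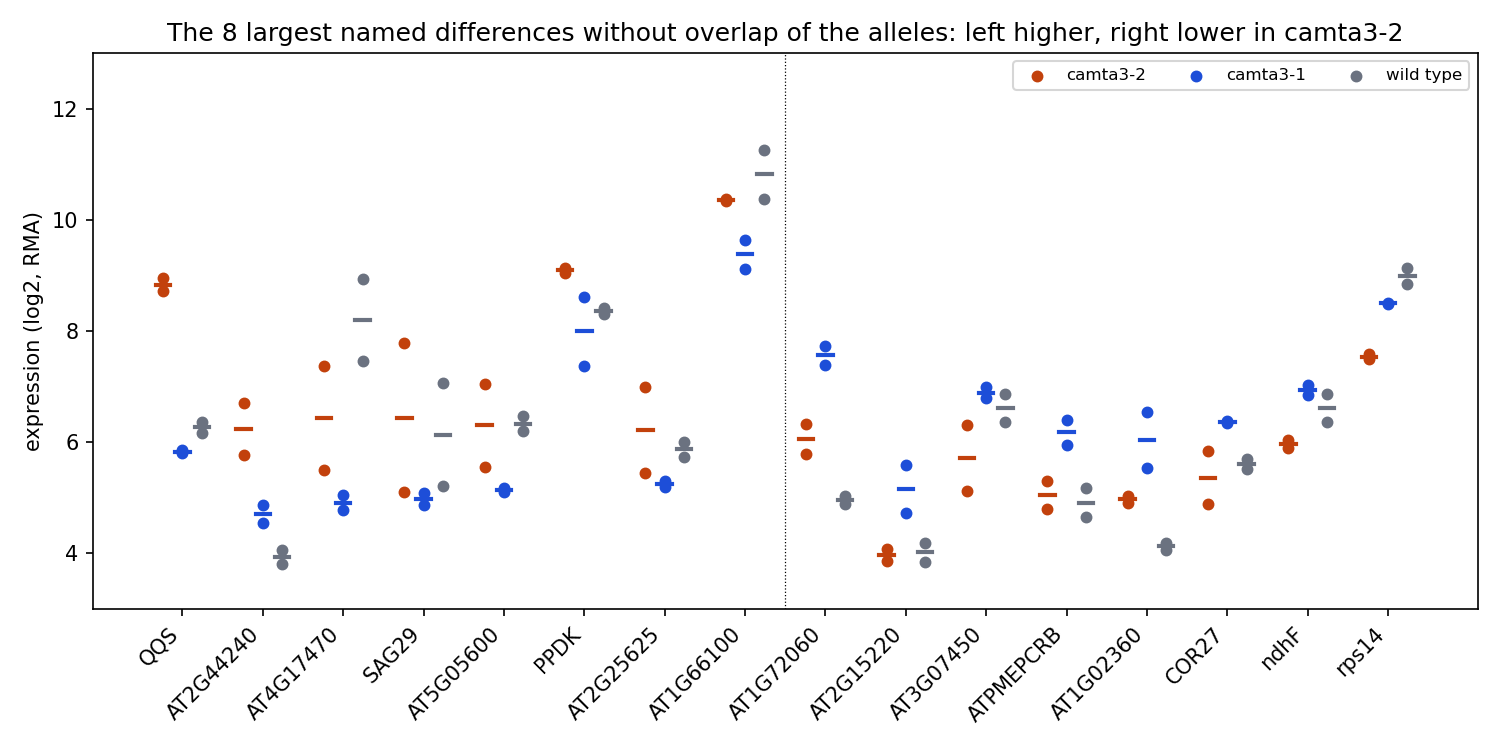
Expression on the log2 scale in each array for the named genes with the 8 largest differences in each direction among those whose camta3-2 and camta3-1 arrays do not overlap, with camta3-2, camta3-1 and wild type side by side. Points are arrays (n = 2 per group) and bars are means. QQS at the far left has both camta3-2 arrays near 9 and the other 4 arrays near 6, while several other genes at the left owe their difference to 1 camta3-2 array.

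Apart from QQS, no transcript was separated from the spread of the arrays once all probe sets were taken into account. With limma, 1 of 22746 reached an adjusted p under 0.05, which is 0.0044% of those tested. It was QQS, higher in camta3-2, and 0 passed as lower in camta3-2. The next smallest adjusted p was 0.597. At an unadjusted p under 0.05 there were 1442 probe sets, or 6.34%, with 567 (2.49%) higher and 875 (3.85%) lower in camta3-2. The count that passed was 2 without camta3-2 replicate 1 and 7 without camta3-2 replicate 2, QQS being among them each time.

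The intervals show how large an unseen difference could be. The median standard error was 0.13 and the median half-width of the 95% interval was 0.31 on the log2 scale, with the 95th percentile of half-widths at 0.52. For 22197 probe sets, or 97.6%, the interval lay wholly inside a 2-fold change in either direction. Differences of at least 2-fold were seen at 46 probe sets, 0.202% of all, with 32 higher and 14 lower in camta3-2. The arrays of the alleles did not overlap at 32 of the 46 and at 34.6% of all probe sets, a count from the same contrast as the choice by size, from which nothing is read. The second largest difference, 1.70, was at a probe set without a named gene, which read 9.98 and 9.16 in camta3-2, against 8.03 and 7.71 in camta3-1, and 10.91 and 10.65 in wild type (adjusted p = 0.597). There camta3-1 was the further from wild type, with a log2 difference of -2.91 (adjusted p = 0.0056).

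**Figure D2:**
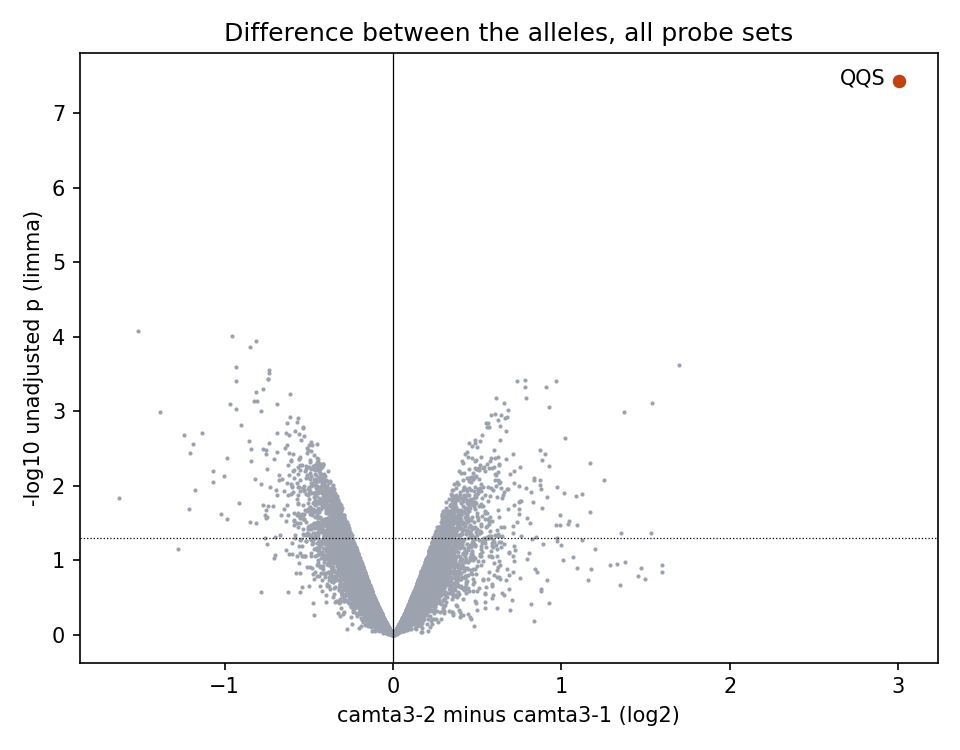
Difference between camta3-2 and camta3-1 on the log2 scale (horizontal) and -log10 of the unadjusted limma p (vertical) for 22746 probe sets. The dotted line marks an unadjusted p of 0.05, and QQS, at 3.00, is the 1 probe set that passed after adjustment.

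Among named genes whose arrays did not overlap between the alleles, the 15 largest differences with camta3-2 higher ran from 0.88 to 3.00, and QQS was the 1 that passed. After QQS in that set came AT2G44240, with 6.71 and 5.78 in camta3-2, 4.87 and 4.54 in camta3-1, and 4.06 and 3.81 in wild type. All 4 mutant arrays lay above wild type and those of camta3-2 were the highest. The difference between alleles was 1.54 (standard error 0.28, adjusted p = 0.658), and the rise over wild type passed in camta3-2 (adjusted p = 0.018) and not in camta3-1 (adjusted p = 0.326). SUFE2, a plastid factor that activates sulfur supply for iron-sulfur clusters, read 6.37 and 5.81 in camta3-2, 5.23 and 5.14 in camta3-1, and 3.95 and 4.41 in wild type. Its difference between alleles was 0.90 (adjusted p = 0.779).

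In TBL26 the difference from wild type did not pass in camta3-2 (adjusted p = 0.406) and passed in camta3-1 (adjusted p = 0.0131). TBL26, of a family that acetylates cell wall polysaccharides, read 8.64 and 8.27 in camta3-2, 7.51 and 7.46 in camta3-1, and 8.997 and 8.72 in wild type. The camta3-1 arrays were the lowest. The difference between alleles, 0.97 with an interval of 0.60 to 1.34, did not pass (limma, adjusted p = 0.597). AT1G66100, a thionin gene, read 10.38 and 10.33 in camta3-2 and 9.65 and 9.12 in camta3-1, beside 11.26 and 10.38 in wild type. Neither allele passed against wild type there (adjusted p = 0.597 in camta3-2 and 0.0777 in camta3-1). PPDK, the pyruvate orthophosphate dikinase gene, read 9.04 and 9.14 in camta3-2, 8.62 and 7.38 in camta3-1, and 8.30 and 8.41 in wild type, so that 1 camta3-1 array made most of its difference of 1.09. Wild type was nearer to camta3-2 than to camta3-1 for 9 of the 15 genes.

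A further group of these genes was high in camta3-2 replicate 1 and not in replicate 2. In 5 of the 15, among them SAG29 and AT5G05600, replicate 1 exceeded replicate 2 by at least 2-fold. SAG29, a sucrose transporter gene of the SWEET family known from senescing leaves, read 7.79 and 5.10 in camta3-2, 4.87 and 5.08 in camta3-1, and 7.06 and 5.21 in wild type. Wild type replicate 1 was high as well, and the interval of the difference between alleles, -0.53 to 3.47, included 0. AT5G05600 and JRG21, in which replicate 1 was also the higher, encode enzymes known to oxidise jasmonate. AT5G05600 read 7.06 and 5.56 in camta3-2 and 5.17 and 5.11 in camta3-1, and JRG21 read 5.38 and 4.54 in camta3-2 and 3.93 and 4.24 in camta3-1. Neither passed (adjusted p = 0.779 for each). AT5G05600 was among the 7 probe sets that passed without camta3-2 replicate 2, at 1.92 (adjusted p = 0.0463).

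Under the same limit, the 15 largest named differences with camta3-2 lower ran from -1.51 to -0.84, and 0 of them passed (limma, adjusted p 0.597 to 0.779). The largest was AT1G72060, a predicted serine protease inhibitor gene. It read 6.32 and 5.79 in camta3-2, 7.74 and 7.40 in camta3-1, and 4.89 and 5.03 in wild type. The 3 groups did not overlap, with camta3-1 highest and wild type lowest. The difference between alleles was -1.51 with a standard error of 0.20 and an interval of -1.97 to -1.06 (adjusted p = 0.597). Its difference from wild type did not pass in camta3-2 (adjusted p = 0.0728) and passed in camta3-1 (adjusted p = 0.0044).

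AT5G55450, a lipid-transfer protein gene, read 10.62 and 10.45 in camta3-2, 11.46 and 11.31 in camta3-1, and 8.39 and 8.38 in wild type. It rose over wild type in both alleles, and the camta3-2 level was lower than that of camta3-1 by a difference of -0.85 that did not pass (adjusted p = 0.597). AT2G43590, AT1G02360 and AT2G43620 are chitinase genes, whose enzymes cleave chitin of fungal walls. They are set together here after their values were seen, and no list of chitinase genes was counted. AT2G43590 read 6.35 and 6.12 in camta3-2, 7.31 and 7.02 in camta3-1, and 6.24 and 6.12 in wild type. AT1G02360 read 5.03 and 4.92 in camta3-2, 6.55 and 5.54 in camta3-1, and 4.19 and 4.07 in wild type. AT2G43620 read 5.75 and 5.25 in camta3-2, 6.47 and 6.22 in camta3-1, and 5.06 and 5.39 in wild type. In all 3 the camta3-1 arrays were the highest of the 6, and the rise over wild type in camta3-1 passed for AT2G43590 (adjusted p = 0.0277) and AT1G02360 (adjusted p = 0.0311).

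CHI (AT2G43570), also a chitinase gene and one of the largest shared rises, read 10.01 and 9.19 in camta3-2, 9.93 and 8.30 in camta3-1, and 6.50 and 6.59 in wild type, with the alleles overlapping. Other genes of the 15 were ATPMEPCRB, a pectin methylesterase gene, at -1.13, and COR27, a cold-induced gene tied to the clock, at -1.01. COR27 read 5.85 and 4.88 in camta3-2 and 6.39 and 6.35 in camta3-1, so that camta3-2 replicate 2 made most of the difference. AT2G15220, a basic secretory protein gene, was at -1.19, and the probe sets for AT2G15220 and for the pseudogene AT2G14650, at -0.93, are of types that can bind several transcripts. The remaining members were AT3G07450 and AT3G52130, both of the lipid-transfer type, at -1.18 and -0.85, AT1G65500 at -0.84, and 3 plastid genes described further on.

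In 444 probe sets, 1.95% of all, the alleles lay on opposite sides of both wild-type arrays, with camta3-2 highest at 156 (0.686%) and camta3-2 lowest at 288 (1.27%). Among named genes the largest such difference was that of QQS, and JRG21 followed with 0.88. EXPB1, a beta-expansin gene of cell wall loosening, read 7.73 and 7.67 in camta3-2, 7.07 and 7.02 in camta3-1, and 7.41 and 7.65 in wild type, a difference of 0.66 (adjusted p = 0.658). The gap between camta3-2 and wild type was small beside that between camta3-1 and wild type. On the other side AT1G23410, a fusion gene of ubiquitin and a ribosomal protein, read 6.41 and 6.33 in camta3-2, 7.01 and 7.21 in camta3-1, and 6.97 and 6.92 in wild type. Its difference was -0.74 (adjusted p = 0.597). Further genes with camta3-2 lowest were AT1G06720, a ribosome biogenesis gene, at -0.62 and AT3G07590, a splicing protein gene, at -0.62. Of the 10 named genes with camta3-2 highest, QQS passed against wild type in camta3-2, and 0 of the other 9 passed in either allele. Of the 10 with camta3-2 lowest, 0 passed against wild type in either allele (limma).

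The change of the average of the alleles against wild type was examined next. The average over camta3-2 and camta3-1, set against wild type, called 320 probe sets (limma, adjusted p under 0.05, 1.41% of all). With groups of equal size this choice does not use the difference between alleles, although both use the same estimate of spread. Against wild type, 165 of the 320 passed in camta3-2, 214 in camta3-1 and 132 in both (limma, adjusted p under 0.05). Over all probe sets these counts were 167, 246 and 132. A shared change is thus one of the average here, and need not have passed in each allele. Of the 320, 1 differed between the alleles, and it was QQS, which entered the 320 through camta3-2 alone. At an unadjusted p under 0.05 there were 32 higher and 33 lower in camta3-2, or 10% and 10.3% of the 320, against 2.49% and 3.85% of all probe sets. The interval of the difference stayed inside a 2-fold change for 264 of the 320, or 82.5%, against 97.6% of all probe sets. At least 2-fold differences were found at 8, or 2.5%, against 0.202% of all. These shares are given as a description, with no test. The intervals of the 320 were also wider, with a median half-width of 0.40 against 0.31. Without wild type replicate 1 or 2 the mean called 5 and 60 probe sets, and 0 of these differed between alleles. The number that differed was 2 without camta3-2 replicate 1 and 3 without camta3-2 replicate 2.

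Among the 262 probe sets above wild type, camta3-2 had the higher mean at 136 and the lower at 126, with a median difference of 0.01 beside -0.01 over all probe sets. Among the 58 below wild type, camta3-2 had the higher mean, and so the smaller shift, at 43 and the lower mean at 15, with a median difference of 0.22. Against wild type, 17 of the 58 passed in camta3-2, 41 in camta3-1 and 7 in both. For the 262 these counts were 148, 173 and 125 (limma). Both camta3-2 arrays lay above both camta3-1 arrays at 32 of these 58 and below them at 11, against 14.9% and 19.7% of all probe sets. TBL26 was one of the 32. SWEET4, a sugar transporter gene, was another, with 6.54 and 6.38 in camta3-2, 5.88 and 5.93 in camta3-1, and 6.89 and 6.96 in wild type, a difference of 0.55 (adjusted p = 0.715). AT1G57590, a pectin acetylesterase gene, read 7.69 and 7.51 in camta3-2, 6.95 and 6.68 in camta3-1, and 7.94 and 7.89 in wild type, a difference of 0.78 (adjusted p = 0.631). SWEET4 and AT1G57590 were picked after their values were seen.

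The 15 genes with the largest shared rises showed how far the alleles could be told apart. For 13 of the 15 the interval of the difference included 0. AT5G52760, a heavy-metal-associated domain gene, read 6.77 and 6.95 in camta3-2, 7.66 and 6.49 in camta3-1, and 3.92 and 3.79 in wild type. The camta3-1 arrays lay on either side of the camta3-2 arrays, and the difference was -0.21 with an interval of -0.97 to 0.55. AT1G35710, a leucine-rich repeat receptor kinase gene, had a difference of -0.08 with an interval of -0.93 to 0.77. RING1, a ubiquitin ligase gene, read 10.40 and 10.23 in camta3-2, 10.61 and 9.86 in camta3-1, and 8.14 and 8.26 in wild type. Its difference was 0.08 with an interval of -0.45 to 0.61. For these genes the interval gives the differences that 2 arrays per allele leave possible.

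The exceptions were AT5G55450, lower in camta3-2 as given above, and STZ. STZ, a zinc-finger repressor also called ZAT10 that responds to wounding, cold and salt, read 7.04 and 7.65 in camta3-2, 6.56 and 6.83 in camta3-1, and 4.93 and 5.06 in wild type. The camta3-2 arrays were the highest, and the difference was 0.65 with an interval of 0.17 to 1.12 (adjusted p = 0.779). Of the 5 largest shared falls, AT3G15720, a polygalacturonase-type gene, was lower in camta3-2, with 4.81 and 4.23 there, 5.36 and 4.85 in camta3-1, and 5.94 and 6.29 in wild type. Its difference was -0.58 with an interval of -1.15 to -0.01 (adjusted p = 0.779). AT1G62510 and AT5G47330, the largest falls, had differences of 0.20 and 0.09.

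**Figure D3:**
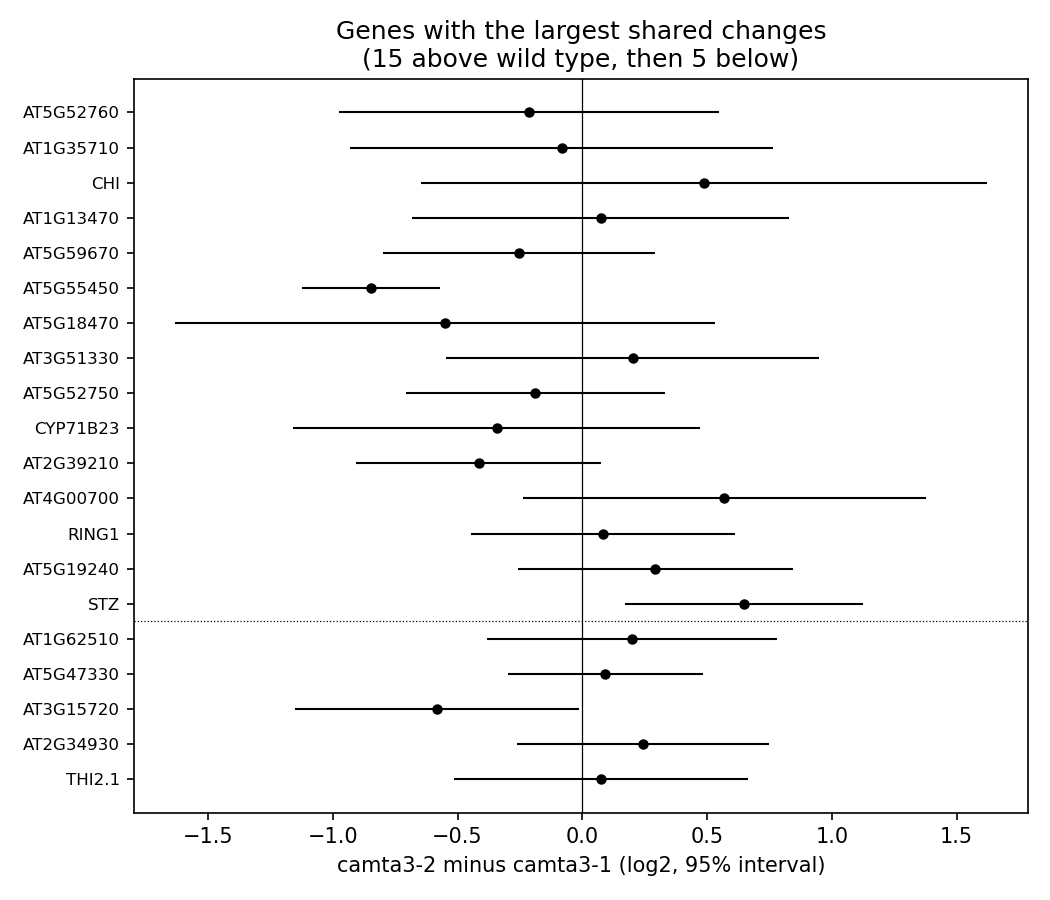
Difference between camta3-2 and camta3-1 on the log2 scale, with 95% limma intervals, for the 15 genes with the largest rises over wild type in the average of the alleles and, under the dotted line, the 5 with the largest falls. AT5G55450 at -0.85, STZ at 0.65 and AT3G15720 at -0.58 are the genes whose interval leaves out 0.

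Gene lists were read by their counts and medians. Of 34 lists, 23 had a measured gene and 10 had at least 3. They held 124 measured genes, of which 0 passed between the alleles (limma, against 0.0044% of all probe sets) and 16, or 12.9%, had an unadjusted p under 0.05, against 6.34% of all. Plastid-encoded genes made up 69 of the 124 and gave 3 higher and 8 lower of the 16. The 3 lists described next gave 0. Of 13 listed genes of pattern-triggered immunity 5 were measured. They include EFR, a receptor for a bacterial protein, and BIK1, a kinase downstream of such receptors. The median difference of the 5 was -0.01 and the arrays of the alleles overlapped for each gene. EFR was at 0.07 (interval -0.23 to 0.37) and BIK1 at -0.13 (interval -0.49 to 0.23). Of 20 listed genes of salicylic acid and pipecolic acid defence 3 were measured under a name, so most of that list was not examined. These 3 had a median of 0.19 and overlapped as well. SAG101, a partner of EDS1, was at -0.37 and AT5G52810 (SARD4), of pipecolic acid synthesis, at 0.43. Of 6 listed CAMTA genes 3 were measured, and these relatives, CAMTA4, CAMTA5 and CAMTA6, were at 0.12, -0.0016 and 0.005, all overlapping.

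Among 6 measured WRKY transcription factors the median was -0.09. WRKY53, known from defence and leaf senescence, read 5.83 and 6.51 in camta3-2, 6.67 and 7.07 in camta3-1, and 4.24 and 4.97 in wild type. The camta3-1 arrays were the highest, and the difference was -0.70 with an interval of -1.40 to -0.01 (adjusted p = 0.779). WRKY53 and STZ are the 2 measured genes of the list of rapid wound and touch responses, and they stood in opposite order between the alleles, WRKY53 lower and STZ higher in camta3-2. That contrast was not tested as such. Among the 4 measured of 10 listed calcium sensors the median was 0.24, with CML37 at 0.46 (interval 0.02 to 0.89, adjusted p = 0.779) and CML42 at -0.23.

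Cold response genes had the largest median of the lists with at least 3 genes, 0.46, from 4 measured of 14 listed genes. All 4 were higher on average in camta3-2, and the arrays of the alleles overlapped for 3 of them. COR15B was at 0.09, with 10.84 and 10.23 in camta3-2 and 10.41 and 10.49 in camta3-1. LTI30, a dehydrin gene, read 9.87 and 8.02 in camta3-2, 8.08 and 7.79 in camta3-1, and 9.99 and 9.22 in wild type. COR15A, which encodes a chloroplast protein that protects membranes during freezing, read 11.36 and 10.47 in camta3-2, 10.43 and 10.37 in camta3-1, and 11.95 and 11.79 in wild type. COR47 read 11.05 and 10.16 in camta3-2 and 10.35 and 10.04 in camta3-1. In LTI30, COR15A and COR47 camta3-2 replicate 1 was far above replicate 2, and replicate 2 lay close to camta3-1. The intervals of LTI30 (-0.24 to 2.26), COR15A (-0.09 to 1.12) and COR47 (-0.22 to 1.04) each included 0.

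**Figure D4:**
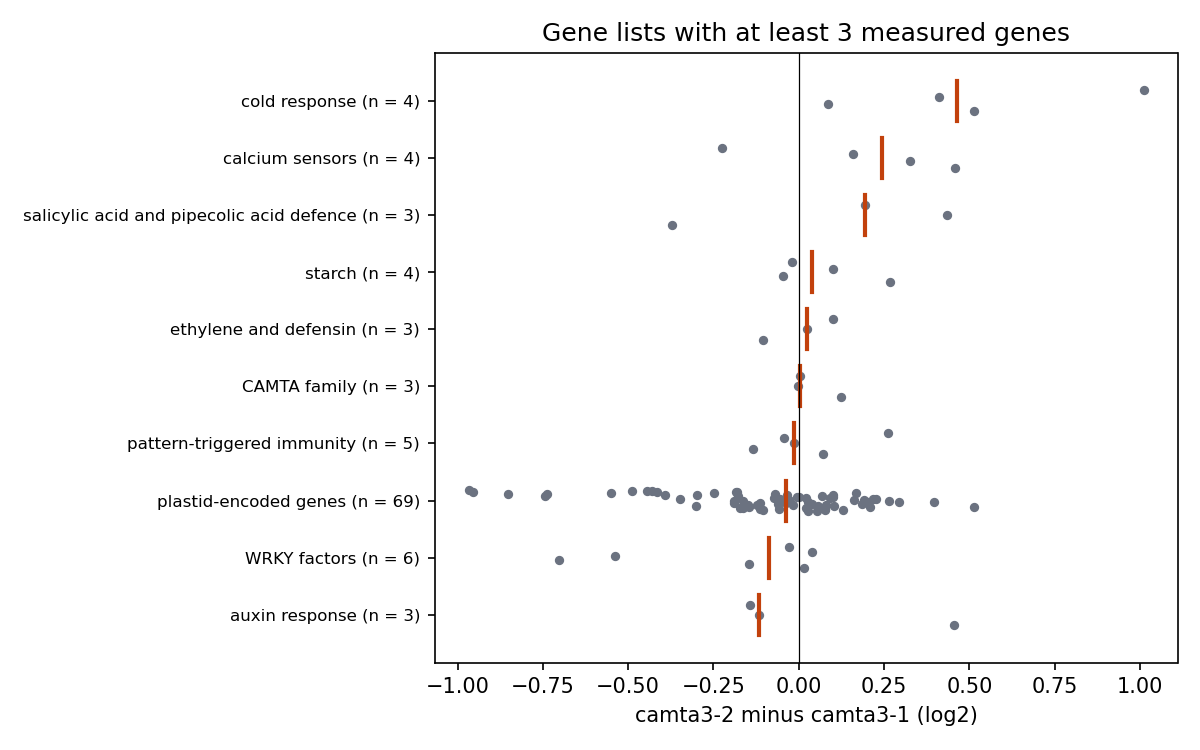
Difference between camta3-2 and camta3-1 on the log2 scale for each measured gene (points) of the 10 lists with at least 3 measured genes, with the list median as a bar. Cold response has the highest median, 0.46, and the 69 plastid-encoded genes spread from -0.97 to 0.51 about a median of -0.04.

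The 69 measured plastid-encoded genes spread widely around a median of -0.04. Both camta3-2 arrays lay below both camta3-1 arrays for 24 of the 69 and above them for 12, against 19.7% and 14.9% of all probe sets, and 0 passed. The lowest were subunits of several complexes. The gene of the ribosomal protein rps14 read 7.58 and 7.498 in camta3-2, 8.51 and 8.48 in camta3-1, and 8.85 and 9.13 in wild type. The camta3-2 arrays were the lowest, and its fall against wild type passed in camta3-2 (adjusted p = 0.0073) and not in camta3-1 (adjusted p = 0.158). The difference between alleles was -0.96 with an interval of -1.25 to -0.66 (adjusted p = 0.597). Of the NADH dehydrogenase-like complex, ndhF was at -0.97 and ndhG at -0.74, while petN and petG, of the cytochrome b6f complex, were at -0.85 and -0.74.

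At the other end stood psbA, which encodes a reaction centre protein of photosystem II. It read 12.33 and 12.06 in camta3-2, 11.98 and 11.39 in camta3-1, and 12.47 and 12.18 in wild type, a difference of 0.51 (adjusted p = 0.779). The control probe set for 5S ribosomal RNA, which like plastid transcripts mostly lacks a long poly(A) tail, read 7.02 and 6.55 in camta3-2, against 7.49 and 7.42 in camta3-1, and 7.59 and 7.88 in wild type. This control moved with the lower plastid genes. Another ribosomal RNA control read 5.24 and 4.99 in camta3-2, 4.95 and 5.02 in camta3-1, and 5.47 and 5.19 in wild type. Its arrays overlapped between the alleles, so it did not move with those genes. The part of either control in the difference of the plastid genes was not tested.

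Because QQS acts on starch, genes of starch metabolism were listed, and 4 of 24 were measured. Their median difference was 0.04. APL3, a subunit of ADP-glucose pyrophosphorylase, which supplies starch synthesis, read 6.30 and 6.17 in camta3-2, 6.02 and 5.91 in camta3-1, and 5.70 and 6.12 in wild type. Its arrays did not overlap between alleles, and the difference was 0.27 with an interval of -0.10 to 0.63 (adjusted p = 0.814). The starch enzymes PWD (AT5G26570), DPE1 and SBE2.2 were at -0.05, 0.10 and -0.02 and overlapped. The 3 genes listed as partners of the QQS protein were not measured under a name.

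Genes beside QQS did not pass the test between the alleles. The 3 nearest measured genes on either side were AT3G30710, AT3G30670 and AT3G30660 before it and AT3G30730, AT3G30740 and AT3G30750 after it, mostly pseudogenes. All 6 read between 3.07 and 4.23 in every array, well below the array medians of 6.175 to 6.259. Their differences between alleles ran from -0.17 to 0.09. RMA shrinks differences of such dim probe sets, so these values cannot show whether the genes beside QQS were unchanged. The neighbours of the CAMTA3 locus were read in the same way. Of the 3 nearest measured genes on either side, AT2G22270, AT2G22230 and AT2G22200 were at -0.02, -0.13 and 0.13, and AT2G22320, AT2G22340 and AT2G22350 at -0.04, 0.03 and 0.09. Of these 12 genes 0 passed (limma) and 0 had an unadjusted p under 0.05, counts that 0.0044% and 6.34% of all probe sets would also leave below 1.

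The named genes whose levels over the 6 arrays were most like those of QQS, by absolute Pearson correlation, were AT4G03160 (-0.9952), AT4G03860 (0.9897), AT3G02490 (-0.9894), AT4G17540 (-0.9882) and AT4G22440 (0.9862). With 6 arrays that fall into 3 groups such values describe these arrays and carry no test. Their differences between alleles were small beside that of QQS. AT4G03160, AT4G03860 and AT4G22440 were dim, at 3.44 to 3.96 in all 6 arrays. AT4G17540 had the largest, -0.54, with 6.55 and 6.47 in camta3-2, 7.05 and 7.05 in camta3-1, and 6.92 and 7.08 in wild type (adjusted p = 0.735).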

How the data were processed

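The authors deposited log2 expression values, with 1 column for each array. The submitters' processing notes name RMA and Partek. Their versions are not stated. RMA makes the arrays' distributions alike and shrinks differences of dim probe sets. The number of arrays limits the precision.

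After removal of 64 controls, 22746 probe sets entered the test, dim ones included. Of these, 13513 had 1 gene in the platform annotation, 503 had several and 8730 had none. Symbols and gene order came from the TAIR10.1 gene table through gene identifiers, with 13436 probe sets matched. No positions are given, because the array values name no genome build. Each listed gene was represented by its probe set with the highest mean.

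All 6 arrays were fitted together in limma 3.58.1 (R 4.3.3), each group having its own mean, with empirical Bayes moderation (3 residual and 4.43 prior degrees of freedom). The contrast was camta3-2 minus camta3-1, two-sided, with Benjamini-Hochberg adjustment over all probe sets and a threshold of 0.05. Intervals are 95% limma intervals. The labels call the replicates biological and say no more, so the p-values measure the spread between these arrays. The fit was also run on simulated data with independent errors and spreads drawn from its own fitted prior. Such data lack the likeness of same-numbered arrays and the single outlying arrays seen here.

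The members, gene lists and rule for named genes were chosen with earlier results of these data known. The 2 organelle lists were redefined by the gene table's genome after it was seen, before their differences were computed. Named genes were QQS, every gene that passed, the 15 largest differences per direction without overlap of the alleles, the 10 per direction with wild type between the alleles, the 15 largest shared rises and 5 largest shared falls, up to 3 genes with the smallest p per list with at least 3 measured genes, 3 neighbours on each side of QQS and of the CAMTA3 locus, and the 5 genes most like QQS. Others were chosen after their values were seen. Alternatives were a replicate block, cyclic loess, 4 arrays only, removal of probe sets below the 40th percentile by mean, median centring, another variance prior, an unmoderated test, array weights, probe sets with 1 gene, other thresholds, and leaving out each array, where a lone remaining array is assumed to vary like the other groups. The plots used matplotlib 3.10.9 under Python 3.11.15. Sequences of QQS and its promoter were not analysed here.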

Additional observations from a re-analysis of the deposited data

Results flagged for a closer look

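QQS differed in its response between the alleles. Relative to wild type it was at 2.57 in camta3-2 and at -0.43 in camta3-1 on the log2 scale. The difference between the alleles, 3.00, passed (limma, adjusted p = 8.358e-04). QQS was named with this difference already known, so that result describes it and is no independent evidence. Every camta3-2 array lay above both wild-type arrays and every camta3-1 array below them.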

How the results depend on the processing

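QQS kept its direction under every alternative run. Because its arrays do not overlap between the alleles, leaving out any array could not reverse it. Its difference was 2.88 to 3.12 when each array was left out in turn, 3.05 after cyclic loess and 3.045 after median centring. It passed in all of these, with adjusted p between 1.252e-04 and 0.0161, and did not pass in the unmoderated test, which rests on 3 residual degrees of freedom alone and where the difference was 3.00 with adjusted p = 0.631 and 0 probe sets passed (1210 at an unadjusted p under 0.05). The number of probe sets that differed was 1 under each other setting except leaving out arrays, where it was 1 to 7. With a relaxed adjusted p of 0.1 it was also 1. The count at an unadjusted p under 0.05 ran from 875 without camta3-1 replicate 2 to 2068 without camta3-1 replicate 1. Of the shared response, 0 to 3 probe sets differed when arrays were left out and 0 in the unmoderated test, which called no shared response. That count could not be fitted with 4 mutant arrays alone, which hold no wild type.

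The replicate block gave 1 probe set (QQS, 3.00, adjusted p = 0.00311), with 2054 at an unadjusted p under 0.05, and it changed no call between the alleles. It called 493 probe sets for the average of the alleles against wild type, compared with 320 without the block, and QQS was the 1 of these that differed. In a separate fit without the block, limited to probe sets with 1 gene, the average called 166 probe sets. Deviations of same-numbered arrays correlated at 0.402 between the alleles, 0.134 between camta3-2 and wild type and -0.037 between camta3-1 and wild type. The value between the alleles is the one that bears on this comparison, and it is no reason against pairing. The labels do not say what a number marks, so the numbers were not taken as pairs. The other 112 named genes had 1650 values under the alternatives, of which 59 had the other sign and 1 passed. The 29 other genes of the 2 sets of 15 largest differences never changed sign, which their choice largely fixed. Where the arrays of the alleles do not overlap, leaving out any array cannot reverse the sign. Of the other settings, only cyclic loess and median centring could move a difference. A 2-fold difference at a probe set with widely spread replicates cannot be told from that spread with 2 arrays per allele.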

Other observations

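Some large differences between the alleles came from 1 camta3-2 array, and the following were chosen after their values were seen. AT1G05340 read 7.90 and 4.52 in camta3-2, 4.83 and 4.39 in camta3-1, and 4.80 and 4.32 in wild type. AT1G09500, a gene of the cinnamyl alcohol dehydrogenase type, read 7.13 and 4.40 in camta3-2, 4.61 and 4.34 in camta3-1, and 5.72 and 5.46 in wild type. In both genes camta3-2 replicate 1 was the highest array by far, and replicate 2 lay between the camta3-1 arrays.

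The opposite case was a probe set for which the annotation used names no gene. It read 3.94 and 7.66 in camta3-2, 4.11 and 4.30 in camta3-1, and 4.07 and 4.07 in wild type, so that camta3-2 replicate 2 alone was high. Its difference between alleles was 1.60 (limma, adjusted p = 0.822).

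Of the probe sets with a named gene on the nuclear chromosomes, the share at an unadjusted p under 0.05 was 4.91% to 6.66% per chromosome, and it was 15.9% of 69 in the plastid genome, with 3 higher and 8 lower in camta3-2. Among 923 pseudogenes of the gene table the share was 3.36%, compared with 6.12% of 12443 protein-coding genes.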
